A study of Mus musculus with 23 samples.

Results

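Chemokines and chemokine receptors were followed in mouse mammary carcinomas as all panel genes whose symbol begins with Ccl, Ccr, Cxcl or Cxcr and a number, or is Xcl1, Xcr1, Cx3cl1 or Cx3cr1, leaving out Cxcl9, Ccl2 and Ccr2. The rule gave 49 of the 3826 genes measured, 31 ligands and 18 receptors, and used no measured value. RNA came from 23 tumours induced in mice with doxycycline at 6 weeks of age. Once tumours were established the animals were randomized to groups of equal mean tumour volume, and 11 control tumours came from vehicle and 12 from 90 mg/kg abemaciclib by daily gavage, frozen after the 12th dose. The labels name no mouse strain, no doxycycline-driven transgene and no promoter, and they number tumours and not animals. Abemaciclib inhibits the cyclin-dependent kinases CDK4 and CDK6, and the comparison asks which transcripts differ in established tumours under it.

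Chemokines are small secreted proteins that guide leukocytes along a gradient, and they act through receptors coupled to inhibitory G proteins. Names follow the spacing of the first cysteines (CC, CXC, XC, CX3C). CXC ligands with a glutamate-leucine-arginine motif act on CXCR2 and draw neutrophils, interferon-induced CXC ligands act on CXCR3 of T cells and natural killer cells, and many CC ligands act on monocytes, macrophages and eosinophils. In mammary tumours they are made by the carcinoma cells as well as by fibroblasts, endothelium and leukocytes.

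Each gene was read through 1 short amplicon of about 110 bases, so levels of different genes also depend on how well each amplicon copies, and levels are compared here between tumours and not between genes. Levels are given as CPM, a count scaled to the tumour's normalized total, and differences as log2FC, the log2 of abemaciclib over control. Total counts were 3044380 to 4492736 in control and 2756919 to 4990391 in abemaciclib tumours, and log10 totals differed by 0.0178 (two-sided permutation test, p = 0.479). Abemaciclib tumours 3 and 10, which earlier work on these data had found to stand apart, are left out of alternative values given beside the results they touch. Leaving out both changed the number of genes called over the whole panel from 0 to 93 of 2924.

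No chemokine or receptor passed edgeR's test at an adjusted p under 0.05. Of the 49 genes, 26 passed the filter on low counts and were tested, 21 ligands and 5 receptors, and 23 were set aside. By edgeR 0 of 26 were called, against a background of 0% of 2925 genes. At an unadjusted p under 0.05, 5 members were higher with abemaciclib (Cxcl2, Cxcl10, Ccl3, Cxcl14 and Ccl7), against 7.59% of all tested genes higher, and 1 was lower (Cxcr4), against 5.81% lower. DESeq2's Wald test called 1 member, Cxcl2, which was higher (adjusted p = 0.0296), against a background of 1.61% called higher, 0.444% lower and 2.05% in either direction. Limma-voom with quality weights called 0 of 26 members, against 1.95% of genes called higher, 2.39% lower and 4.34% in either direction. Without abemaciclib tumours 3 and 10, edgeR called 0 of 26 members, against 1.09% of genes called higher, 2.09% lower and 3.18% in either direction. The log2FC was positive for 19 of 26 members and for 51.1% of all tested genes, with a median of 0.27 against 0.0055 for all tested genes. The members' median was 0.18 without abemaciclib tumours 3 and 10. In no member did the 2 groups separate without overlap, and the same held for 0% of all tested genes. In whole tumours fewer cells of a type and less RNA per cell cannot be told apart.

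**Figure D1:**
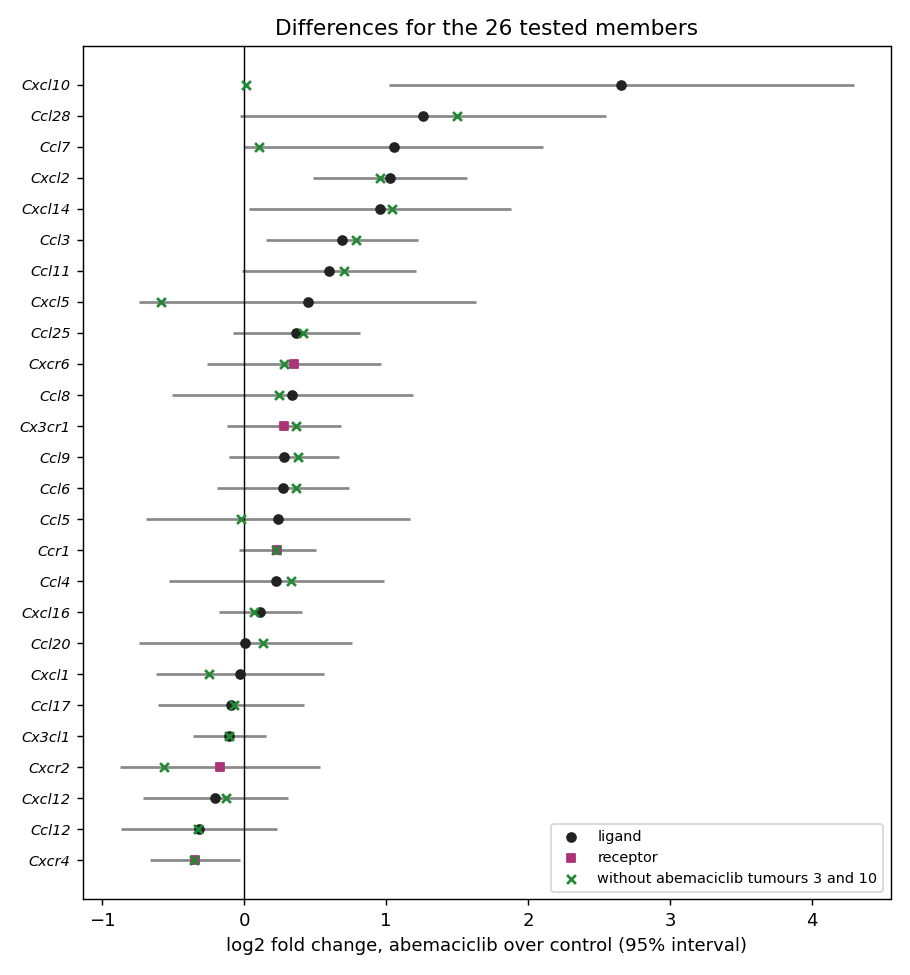
Log2 fold change of abemaciclib over control (x axis) with its 95% interval for the 26 members that passed the low-count filter (y axis), with ligands as circles, receptors as squares, and crosses for the value without abemaciclib tumours 3 and 10. The intervals of Cxcl2, Cxcl10, Ccl3, Cxcl14, Ccl7 and Cxcr4 leave out 0, and the crosses of Cxcl10 and Ccl7 fall to 0.0091 and 0.11.

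Among ligands of CXCR2, Cxcl2 (chromosome 5, 90903871 to 90905938, mm10), a neutrophil attractant, lay higher with abemaciclib in most tumours, and its neighbour Cxcl1 (chromosome 5, 90891241 to 90893115), which acts on the same receptor, was above the control median in 6 of 12. Cxcl2 ran from 1.03 to 3.22 CPM with a median of 2.56 in control tumours and from 1.20 to 9.57 CPM with a median of 4.47 in abemaciclib tumours. In 9 of 12 abemaciclib tumours it was above every control tumour, and abemaciclib tumours 6, 7 and 11 lay within the control range. The means were 2.37 ± 0.589 CPM (SD, n = 11) and 4.86 ± 2.34 CPM (SD, n = 12), with log2FC 1.03 (SE 0.264, 95% interval 0.48 to 1.57, adjusted p = 0.0823 by edgeR). These levels rest on 4 to 14 counts per control tumour and 5 to 30 per abemaciclib tumour. The gene was above the filter's level of 2.46 CPM in 6 of 11 control and 10 of 12 abemaciclib tumours, so it entered the test through both groups, with 11 tumours required. Without abemaciclib tumours 3 and 10 the value was 0.96 (adjusted p = 0.0640).

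Cxcl1 ran from 14.7 to 83.9 CPM with a median of 25.5 in control and from 12.0 to 58.3 CPM with a median of 26.5 in abemaciclib tumours. The groups overlapped almost fully, and the log2FC was -0.028 (SE 0.287, 95% interval -0.62 to 0.56, adjusted p = 0.976 by edgeR), or -0.25 without abemaciclib tumours 3 and 10. The log2 level of Cxcl2 minus that of Cxcl1 was -3.35 ± 0.708 (SD, n = 11) for control tumours and -2.52 ± 0.741 (SD, n = 12) under abemaciclib. The groups differed by 0.84, or 0.94 without abemaciclib tumours 3 and 10, given as a description with no test because the pair was chosen for its unlike values.

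Cxcl3, also a ligand of CXCR2, was set aside by the filter and shares an exact stretch of 157 bases with Cxcl2 in the GENCODE transcripts. Since the stretch is longer than an amplicon and no source used here gives the amplicon positions, reads of Cxcl2 and Cxcl3 are uncertain. Cxcl1 and Cxcl2 share at most 23 bases in a row. Cxcl3 had 65 counts over 10 of 11 control tumours and 186 counts over 11 of 12 abemaciclib tumours. Its level was 0 to 3.07 CPM in control tumours, and abemaciclib tumours 3 and 10 were the highest at 8.24 and 13.3 CPM. With no filter its log2FC was 1.38 (SE 0.584, adjusted p = 0.292 by edgeR). Cxcl5, which epithelial cells release to draw neutrophils, ranged from 1.74 to 22.7 CPM in control and from 0.481 to 44.1 CPM in abemaciclib tumours, with tumours 10 and 3 highest. Its log2FC was 0.45 (SE 0.575, adjusted p = 0.778), and it was -0.59 without abemaciclib tumours 3 and 10. Cxcl15, a lung and mucosal ligand, had at most 22 counts in any tumour and was not tested.

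Cxcl1, Cxcl2 and Cxcl3 lie together on chromosome 5, and their promoters are shown with that of Cxcl10, since this group holds the 2 members with the smallest p. Promoters were taken from RefSeq on GRCm38.p6, from 250 bases before to 50 bases after each start site, and 36 of 49 members matched an entry. They are the windows chr5:90890995-90891294 (plus strand), chr5:90903649-90903948 (plus), chr5:90785851-90786150 (plus) and chr5:92348840-92349139 (minus). Capitals mark matches to 2 motifs searched on both strands, the consensus of NF-kappaB sites (kappaB) and GAAA, any 2 bases and GAAA, the core of the interferon-stimulated response element (ISRE).
Cxcl1: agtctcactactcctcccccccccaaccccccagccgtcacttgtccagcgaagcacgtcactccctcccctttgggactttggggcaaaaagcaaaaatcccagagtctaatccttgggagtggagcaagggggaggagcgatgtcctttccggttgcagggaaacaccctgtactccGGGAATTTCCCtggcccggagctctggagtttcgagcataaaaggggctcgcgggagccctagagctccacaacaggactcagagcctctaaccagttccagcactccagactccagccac
Cxcl2: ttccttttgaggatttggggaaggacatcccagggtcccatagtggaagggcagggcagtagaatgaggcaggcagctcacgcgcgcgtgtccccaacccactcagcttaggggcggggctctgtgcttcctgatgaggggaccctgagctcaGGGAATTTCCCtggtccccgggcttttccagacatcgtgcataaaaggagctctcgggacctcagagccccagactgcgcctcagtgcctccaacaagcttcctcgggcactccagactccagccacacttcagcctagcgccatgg
Cxcl3: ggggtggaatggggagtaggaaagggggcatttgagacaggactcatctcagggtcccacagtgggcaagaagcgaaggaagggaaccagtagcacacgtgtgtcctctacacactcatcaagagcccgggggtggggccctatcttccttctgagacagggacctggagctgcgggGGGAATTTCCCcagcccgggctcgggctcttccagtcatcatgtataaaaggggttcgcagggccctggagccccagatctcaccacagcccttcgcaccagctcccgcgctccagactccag
Cxcl10: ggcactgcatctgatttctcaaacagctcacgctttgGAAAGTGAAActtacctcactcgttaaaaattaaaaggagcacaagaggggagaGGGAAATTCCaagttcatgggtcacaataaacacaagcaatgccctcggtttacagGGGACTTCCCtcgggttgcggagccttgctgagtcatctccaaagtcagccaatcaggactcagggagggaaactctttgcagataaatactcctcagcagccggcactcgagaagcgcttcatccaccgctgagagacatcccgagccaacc
A kappaB match began 71 bases before the start site in Cxcl1, 97 in Cxcl2 and 73 in Cxcl3, each time with a second match on the other strand that began 1 base further on and overlapped it. The kappaB and ISRE matches did not overlap each other. Cxcl10 had separate kappaB matches beginning 159 and 103 bases before the start and an ISRE match beginning 213 bases before it. Of all 32851 promoter windows, 4.51% held the kappaB consensus and 3.44% the ISRE core. Among the 36 members with a window, 8 held a kappaB match (Ccl20, Ccl9, Ccr3, Ccr6, Cxcl1, Cxcl10, Cxcl2 and Cxcl3) and 3 an ISRE match (Ccl19, Cxcl10 and Cxcl14). A match describes the letters of the window and is no evidence of binding.

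**Figure D2:**
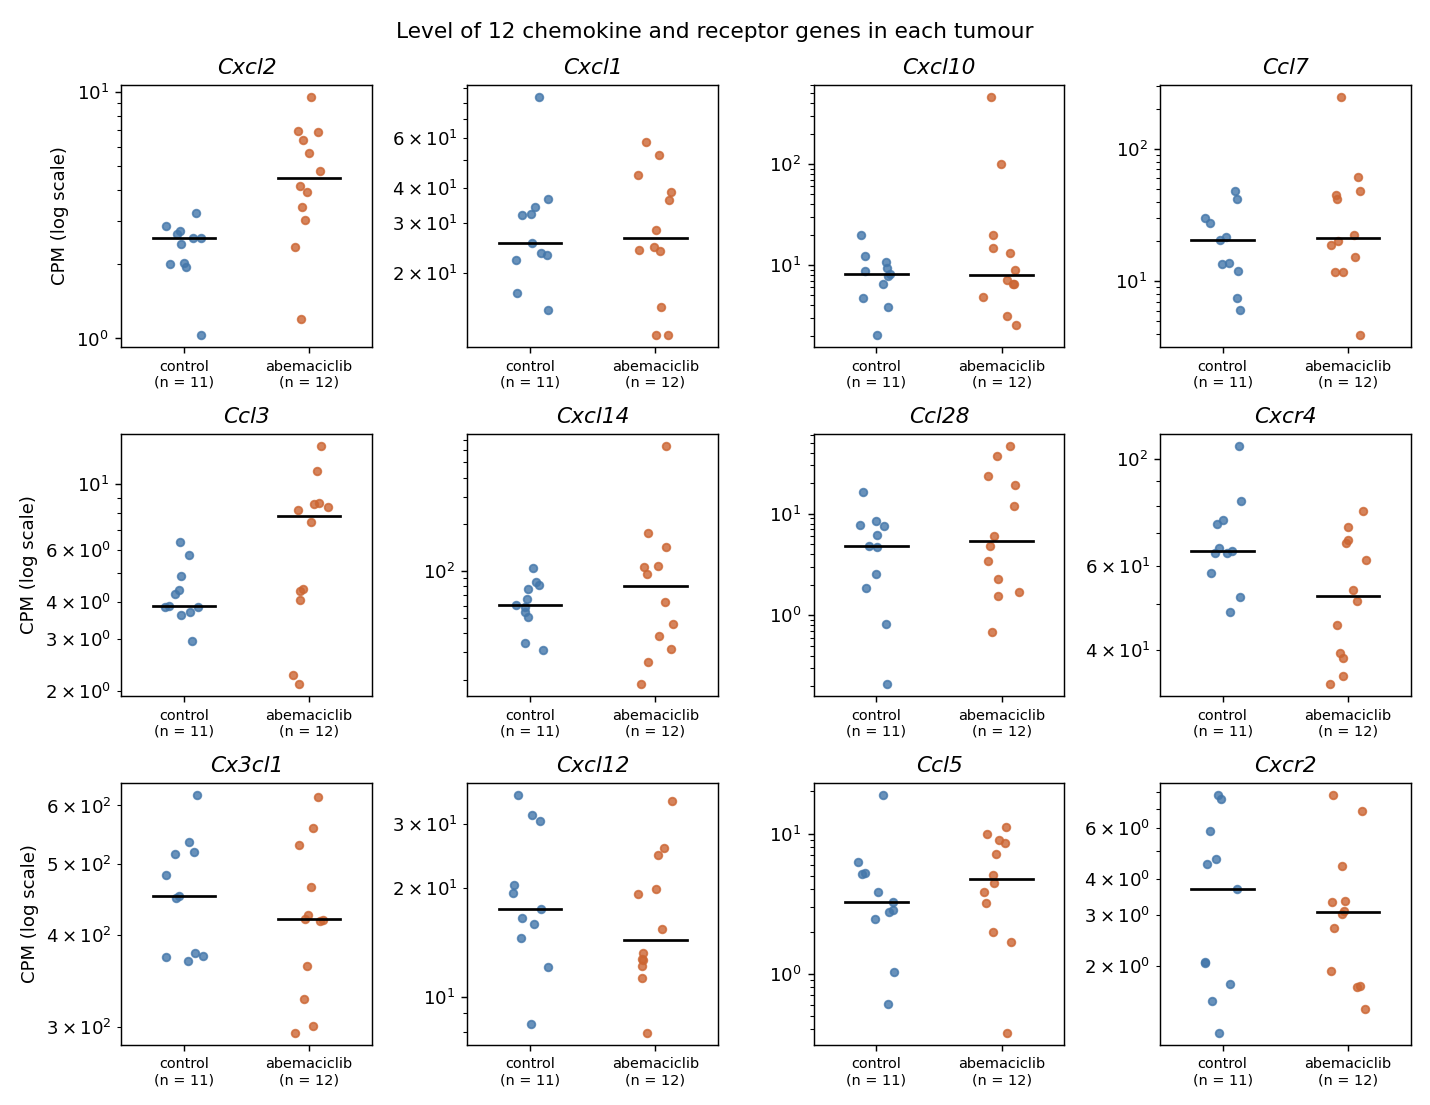
Level in CPM (log scale, y axis) of 12 chemokine and receptor genes in each tumour, control (n = 11) in blue and abemaciclib (n = 12) in orange, with a bar at the group median and a separate y axis for each gene. Cxcl2 lies above every control tumour in 9 of 12 abemaciclib tumours, while Cxcl10 and Ccl7 differ through 1 or a few high tumours.

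Cxcl10 and Cxcl11, the interferon-induced ligands of CXCR3, were far higher in abemaciclib tumours 3 and 10 than in any other tumour. Cxcl10 (chromosome 5, 92346638 to 92348889) was at 99.1 CPM in abemaciclib tumour 3 and 461 CPM in tumour 10. It was between 2.57 and 19.8 CPM in the other 10 abemaciclib tumours and between 2.02 and 19.8 CPM in control tumours. The median was 8.20 CPM in the control group and 7.96 CPM under abemaciclib, and 6 of 12 abemaciclib tumours lay above the control median. The means were 8.54 ± 4.79 CPM (SD, n = 11) and 53.9 ± 131 CPM (SD, n = 12), with log2FC 2.66 (SE 0.796, 95% interval 1.02 to 4.29, adjusted p = 0.127 by edgeR). It was 0.99 without abemaciclib tumour 10 and 0.0091 without tumours 3 and 10 (adjusted p = 0.993). DESeq2 replaced the count of abemaciclib tumour 10 by an imputed one and gave 0.93 (adjusted p = 0.359), and limma-voom gave 0.50.

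Cxcl11 (chromosome 5, 92359544 to 92365485) was set aside by the filter. It was at 73.8 and 247 CPM in abemaciclib tumours 3 and 10, at 0 to 10.1 CPM in the other abemaciclib tumours and at 0 to 6.12 CPM in control tumours. With no filter its log2FC was 3.94 (SE 1.06, adjusted p = 0.0925 by edgeR). The receptor Cxcr3 had up to 4 counts per control and 3 per abemaciclib tumour, and with no filter its log2FC was 0.16 (SE 0.639, adjusted p = 0.945 by edgeR). Cxcl10 followed Cxcl9, another ligand of this receptor, within the abemaciclib group (Pearson's r 0.963, Spearman's rho 0.867, n = 12, permutation p = 5.00e-05 and 5.10e-04, adjusted 8.00e-04 and 0.00693), and r was 0.757 without tumours 3 and 10. In control tumours r was 0.604 and rho 0.627 (n = 11, permutation p = 0.0471 and 0.0449, adjusted 0.151 and 0.144). Without control tumours 1 and 10, the farthest from the median of Cxcl10, r was 0.154, so in the control group the relation rests on them.

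Abemaciclib tumours 3 and 10 were together the 2 highest of all 23 tumours for 2 of 26 tested members, Ccl7 and Cxcl10, and for 2.67% of all tested genes. The same held for 2 of the 23 members set aside, Cxcl11 and Cxcl3. These tumours also had the highest summed level of 8 mammary epithelial markers on the panel, 18665 and 16983 CPM, against at most 13690 CPM in other abemaciclib and 5550 to 11240 CPM in control tumours. Krt14, a basal keratin, was at 9147 and 6110 CPM in them against at most 1679 CPM in other abemaciclib and 247 to 3016 CPM in control tumours. Their lead in the epithelial sum rests on Krt14, since without it another abemaciclib tumour was above both. Of 11 T cell markers on the panel, the summed level was 60.6 and 106 CPM in tumours 3 and 10, up to 75.0 CPM in other abemaciclib and 18.1 to 75.8 CPM in control tumours, so tumour 3 did not stand apart in it. The part of these markers in the levels of Cxcl10 and Cxcl11 was not tested.

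**Figure D3:**
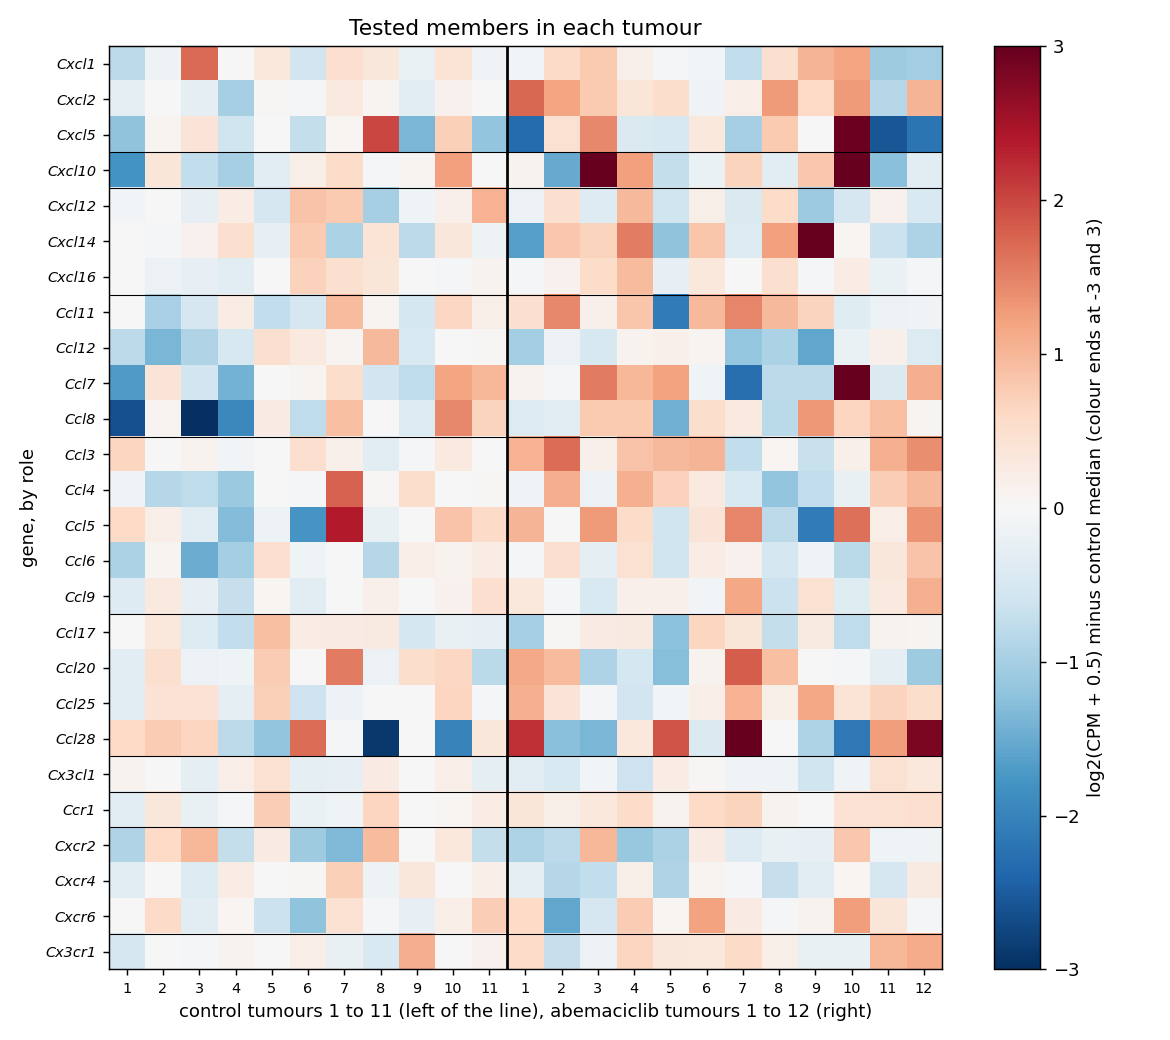
Each of the 26 tested members (rows, grouped by role) in each tumour (columns, control left and abemaciclib right), as log2(CPM + 0.5) minus the control median, with colours ending at -3 and 3. Cxcl10 is deepest in abemaciclib tumours 3 and 10, Cxcl14 in abemaciclib tumour 9 and Ccl28 in several tumours, while Cx3cl1 and Ccr1 stay near 0.

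Among the other CXC ligands Cxcl14 spread most widely between abemaciclib tumours. Cxcl14 (chromosome 13, 56288643 to 56296551), a ligand made by epithelium and fibroblasts, ran from 31.0 to 105 CPM with a median of 60.6 in control and from 18.8 to 641 CPM with a median of 79.7 in abemaciclib tumours. The highest value belonged to abemaciclib tumour 9, and the next was 177 CPM. Of the abemaciclib tumours 5 lay above and 2 below every control tumour, so the group was spread in both directions. The log2FC was 0.96 (SE 0.448, adjusted p = 0.347 by edgeR), and 0.28 without abemaciclib tumour 9 or 0.24 by limma-voom. Cxcl12 (chromosome 6, 117168535 to 117181367), the stromal ligand of CXCR4, ran from 8.42 to 36.1 CPM in control and from 7.94 to 34.7 CPM in abemaciclib tumours, with medians of 17.4 and 14.3. Its log2FC was -0.21 (SE 0.248, 95% interval -0.72 to 0.30). Cxcl16 (chromosome 11, 70453983 to 70459984), a membrane-bound ligand of CXCR6, ran from 71.9 to 145 CPM and from 75.6 to 174 CPM, with log2FC 0.11 (SE 0.141, 95% interval -0.18 to 0.40). Cxcl13, which draws B cells to follicles, had at most 6 counts in any tumour.

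Ccl7 and Ccl3 had the smallest p among the CC ligands. Ccl7 (chromosome 11, 82045712 to 82047525), which draws monocytes through CCR2, ran from 6.06 to 47.7 CPM with a median of 20.6 in control and from 3.92 to 247 CPM with a median of 21.2 in abemaciclib tumours. Abemaciclib tumour 10 stood alone at the top, the next being tumour 3 at 61.7 CPM, and 6 of 12 lay above the control median. The log2FC of 1.05 (SE 0.511, adjusted p = 0.373 by edgeR) was 0.31 without abemaciclib tumour 10 and 0.11 without tumours 3 and 10, and limma-voom gave 0.36. Ccl7 followed its neighbour Ccl2, which acts on the same receptor. In control tumours r was 0.775 and rho 0.682 (n = 11, permutation p = 0.00393 and 0.0244, adjusted 0.0157 and 0.0978), and r was 0.509 without control tumours 1 and 4. In abemaciclib tumours r was 0.893 and rho 0.839 (n = 12, permutation p = 1.10e-04 and 0.00122, adjusted 8.80e-04 and 0.00693), and r was 0.708 without abemaciclib tumours 7 and 10.

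Ccl12 (chromosome 11, 82101845 to 82103400), another monocyte attractant, ran from 3.07 to 17.7 CPM in control and from 2.65 to 9.85 CPM in abemaciclib tumours, with log2FC -0.32 (SE 0.267, adjusted p = 0.646). Limma-voom gave it 0.088, so its direction is not settled. Ccl8 and Ccl11, a monocyte and an eosinophil attractant named here outside the naming rule, had log2FC of 0.34 (SE 0.413) and 0.60 (SE 0.299, adjusted p = 0.397). Ccl8 spread over 2.46 to 72.0 CPM in control and 9.28 to 64.6 CPM in abemaciclib tumours. Ccl11 spread over 14.6 to 56.8 and 6.47 to 81.1 CPM, with 8 of 12 abemaciclib tumours above the control median. Ccl24, an eosinophil ligand, had 11 counts over 6 of 11 control tumours and 34 counts over 10 of 12 abemaciclib tumours. Ccl26 had 0 counts in all 23 tumours, which allows up to 0.0324 CPM over their pooled total, for counting error alone.

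All 5 inflammatory CC ligands of the group Ccl3, Ccl4, Ccl5, Ccl6 and Ccl9 had positive values, from 0.23 to 0.69 on the log2 scale, and 1 of them, Ccl3, had an unadjusted p under 0.05. Ccl3 (chromosome 11, 83647844 to 83649355), an inflammatory ligand of macrophages and T cells, ran from 2.95 to 6.35 CPM with a median of 3.88 in control and from 2.11 to 13.5 CPM with a median of 7.81 in abemaciclib tumours. In 7 of 12 abemaciclib tumours it was above every control tumour, while tumours 7 and 9 were below every control tumour. The means were 4.31 ± 0.996 CPM (SD, n = 11) and 6.91 ± 3.51 CPM (SD, n = 12), with log2FC 0.69 (SE 0.259, 95% interval 0.15 to 1.22, adjusted p = 0.213 by edgeR). It rests on 14 to 24 counts per control tumour and 6 to 63 per abemaciclib tumour. Without abemaciclib tumours 3 and 10 it was 0.79 (adjusted p = 0.113).

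Ccl4, made by the same cells and encoded beside Ccl3, followed Ccl3 in abemaciclib tumours (r 0.819, rho 0.839, n = 12, permutation p = 0.00135 and 0.00130, adjusted 0.00720 and 0.00693), and r was 0.820 without tumours 7 and 9. In control tumours r was 0.0941 and rho -0.0727 (n = 11, permutation p = 0.779 and 0.838, adjusted 0.909 and 0.904), and r was 0.211 without control tumours 1 and 6. Whether the relation differs between the groups was not tested. Ccl4 itself, outside the naming rule, had log2FC 0.23 (SE 0.369), on 3 to 30 counts. Ccl5 (chromosome 11, 83525778 to 83530518), a T cell and natural killer cell product, ran from 0.605 to 19.0 CPM in control and from 0.378 to 11.2 CPM in abemaciclib tumours. Its log2FC was 0.24 (SE 0.452, 95% interval -0.70 to 1.17), and -0.024 without abemaciclib tumours 3 and 10. Ccl9 (chromosome 11, 83572919 to 83578636), a myeloid ligand of CCR1, ran from 40.2 to 92.3 CPM in control and from 41.6 to 144 CPM in abemaciclib tumours, with log2FC 0.28 (SE 0.188, adjusted p = 0.561). Ccl6, a related ligand outside the naming rule, had log2FC 0.27 (SE 0.226).

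**Figure D4:**
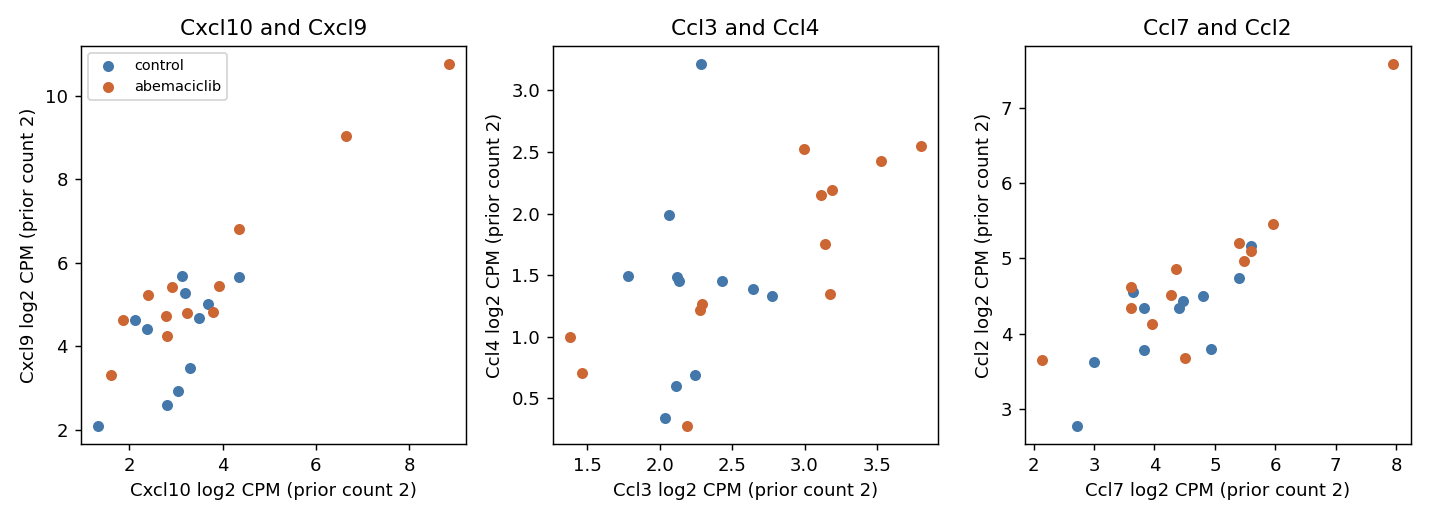
Log2 CPM of Cxcl10 against Cxcl9, Ccl3 against Ccl4 and Ccl7 against Ccl2 in control (blue, n = 11) and abemaciclib (orange, n = 12) tumours, each point 1 tumour. Cxcl10 and Cxcl9 (r 0.963) and Ccl7 and Ccl2 (r 0.893) run together in abemaciclib tumours, and Ccl3 and Ccl4 run together in abemaciclib (r 0.819) but show r of 0.0941 in control tumours.

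Among ligands of lymphoid tissue and barriers, Ccl28 varied most. Ccl28 (chromosome 13, 119623819 to 119654359), an epithelial ligand that draws plasma cells into the mammary gland, ran from 0.211 to 16.3 CPM with a median of 4.78 in control and from 0.688 to 46.8 CPM with a median of 5.42 in abemaciclib tumours. Abemaciclib tumours 1, 5, 7 and 12 lay above every control tumour, and 6 of 12 lay over the middle control value. The log2FC was 1.26 (SE 0.626, 95% interval -0.03 to 2.55, adjusted p = 0.395 by edgeR). It was 0.74 by limma-voom and 1.5 without abemaciclib tumours 3 and 10. Tumours 3 and 10, the highest for Cxcl10, were the lowest 2 abemaciclib tumours for Ccl28, at 1.53 and 0.688 CPM. Ccl17 (chromosome 8, 94810453 to 94812036), a dendritic cell ligand of CCR4, had log2FC -0.093 (SE 0.249), which turned to 0.039 by limma-voom. Ccl20 and Ccl25, ligands of CCR6 and CCR9 outside the naming rule, had values of 0.0081 (SE 0.364) and 0.37 (SE 0.217), and that of Ccl20 turned negative under upper-quartile factors, library totals and limma-voom. Ccl22, which shares CCR4 with Ccl17, was set aside with up to 11 counts per control and 23 per abemaciclib tumour.

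Cx3cl1 (chromosome 8, 94772009 to 94782427), the membrane-bound ligand of epithelium and endothelium, had the most reads of all members. It ran from 369 to 621 CPM with a median of 451 in control and from 294 to 616 CPM with a median of 420 in abemaciclib tumours, with log2FC -0.11 (SE 0.125, 95% interval -0.36 to 0.15). Its interval leaves out a change of 1.5-fold in either direction. Its receptor Cx3cr1 (chromosome 9, 119901616 to 120069879), carried by monocytes and tissue macrophages, ran from 57.7 to 175 CPM in control and from 50.5 to 176 CPM in abemaciclib tumours, with log2FC 0.28 (SE 0.195, adjusted p = 0.565). Between ligand and receptor r was -0.150 and rho -0.355 in control tumours (n = 11, permutation p = 0.695 and 0.285, adjusted 0.909 and 0.457), and r was -0.122 without control tumours 5 and 6. In abemaciclib tumours r was 0.546 and rho 0.448 (n = 12, permutation p = 0.0675 and 0.148, adjusted 0.180 and 0.312), and r was 0.674 without abemaciclib tumours 4 and 11. Of 16 relations tested, over 8 pairs and both groups, the other 8 (Cxcl1 with Cxcl2, Cxcl2 with Cxcr2, Cxcl12 with Cxcr4 and Cxcl16 with Cxcr6) lay at r from -0.316 to 0.529 with adjusted permutation p from 0.210 to 0.987. Their rho lay at -0.118 to 0.591 with adjusted permutation p from 0.163 to 0.904.

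Of the 18 receptors 5 were tested, and Cxcr4 was the 1 with an unadjusted p under 0.05. Cxcr4 (chromosome 1, 128588199 to 128592293), the receptor of CXCL12 on leukocytes and many carcinoma cells, ran from 48.0 to 107 CPM with a median of 64.2 in control and from 34.0 to 77.9 CPM with a median of 52.0 in abemaciclib tumours. Under abemaciclib 5 of 12 tumours lay below every control tumour, and 4 of 12 exceeded the control median. The means were 68.3 ± 16.1 CPM (SD, n = 11) and 53.6 ± 15.4 CPM (SD, n = 12), with log2FC -0.35 (SE 0.154, 95% interval -0.67 to -0.03, adjusted p = 0.303 by edgeR). Its value was -0.35 without abemaciclib tumours 3 and 10 as well. Cxcr2 (chromosome 1, 74153989 to 74161246), the neutrophil receptor for CXCL1 and CXCL2, ran from 1.17 to 7.81 CPM in control and from 1.41 to 7.86 CPM in abemaciclib tumours. Its log2FC was -0.17 (SE 0.343, 95% interval -0.88 to 0.54), and -0.56 without abemaciclib tumours 3 and 10, which were its highest in that group. Ccr1 and Cxcr6, outside the naming rule, were at 0.23 (SE 0.131) and 0.35 (SE 0.298). Ccr1, a receptor of myeloid cells, exceeded the control median in 12 of 12 tumours under abemaciclib and the highest control tumour in 0 of 12.

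The other 13 receptors were set aside by the filter, among them several of T and B cells, such as Cxcr3 and Cxcr5. Cxcr1 had 5 counts over 2 of 11 control tumours and 0 counts in all 12 abemaciclib tumours, which allows up to 0.0607 CPM over the pooled abemaciclib total, for counting error alone. Ccr9, a gut-homing receptor, had 4 counts over 2 of 11 control tumours and 34 counts over 9 of 12 abemaciclib tumours. With no filter its adjusted p was 0.136 by edgeR. Ccr7, which guides cells to lymph nodes, had up to 14 counts per control and 11 per abemaciclib tumour. Low counts were also seen in other members set aside, with at most 1 in any tumour for Ccl1, 3 for Ccr3 and Cxcr5, 4 for Ccl19, Ccr4 and Ccr1l1, 6 for Ccr8, 7 for Xcr1, 8 for Ccr10, 13 for Ccr6 and 14 for Xcl1. Of all 23 members set aside, 16 had at most 10 counts in every tumour. With no filter, 0 of the 48 members with a count were called by edgeR, against 0% of 3734 genes, and 11 of 48 had an unadjusted p under 0.05, 9 higher and 2 lower, against 7.95% higher, 5.46% lower and 13.4% in either direction among all genes. The added 5 were Cxcl11, Ccr9, Cxcl3, Ccl24 and Cxcr1.

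Other genes of the pathway were read from 4 lists, none with a gene called by edgeR. Of 9 tested family members outside the rule, 6 were positive with a median of 0.57, and Ppbp, a platelet ligand of CXCR2, was at 1.48 (SE 0.363, adjusted p = 0.0651) and Cxcl9 at 3.16 (SE 0.834), a value that fell to 0.58 without abemaciclib tumours 3 and 10. Of 10 tested genes of receptor signalling, 6 were positive with a median of 0.13, and those with the smallest p were Dock2, a Rac activator of leukocytes, at 0.61 (SE 0.176, adjusted p = 0.122) and Ptk2b, a focal adhesion kinase relative, at 0.41 (SE 0.146). Of 14 tested inducers of chemokine transcription, 11 were positive with a median of 0.13, among them Irf7, an interferon regulatory factor, at 1.17 (SE 0.419, adjusted p = 0.191). All 10 proteases that can cut chemokines were positive by edgeR over all tumours, with a median of 0.75. Those with the smallest p were the matrix metalloproteases Mmp3 at 1.69 (SE 0.375, adjusted p = 0.0578) and Mmp13 at 1.31 (SE 0.415). The sign of Mmp9 was not settled, since 0.77 by edgeR turned to -0.58 by limma-voom and -0.044 without abemaciclib tumours 3 and 10. Its median was 35.2 CPM for control and 19.0 CPM under abemaciclib. The other proteases stayed positive in both alternatives. Without abemaciclib tumours 3 and 10, edgeR called 2 of these pathway genes, Dock2 (adjusted p = 0.0386) and Mmp3 (adjusted p = 0.0236).

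Markers of other cell types were read beside these genes. The summed level of 6 macrophage markers on the panel, of 12 listed, was 1385 to 2944 CPM in control and 1889 to 4540 CPM in abemaciclib tumours, and 6 of 6 were positive. Cd14, which is also made outside macrophages, gave most of that sum, and it was the 1 of 6 with an unadjusted p above 0.05. The other 5 were at log2FC 0.45 to 0.73, against 13.4% of all tested genes with an unadjusted p under 0.05. Msr1, a scavenger receptor, was at 0.73 (SE 0.168, adjusted p = 0.0578 by edgeR), and the Fc receptor gene Fcgr3 at 0.69 (SE 0.188, adjusted p = 0.0912). DESeq2 and limma-voom both called Msr1, Fcgr3 and the complement gene C1qa, and edgeR called Msr1 (adjusted p = 0.0181) and Fcgr3 (adjusted p = 0.0292) without abemaciclib tumours 3 and 10. Of 13 neutrophil markers 7 were on the panel, with sums of 6895 to 40109 and 21389 to 64852 CPM that were mostly Lcn2, which epithelium also makes, and 5 of 5 tested were positive. S100a8, abundant in neutrophils, was at log2FC 0.49 (SE 0.200, adjusted p = 0.259) and the neutrophil receptor Csf3r at 0.23 (SE 0.192). Of the 5 tested, 3 (S100a8, Lcn2 and Mmp8) had an unadjusted p under 0.05, against 13.4% of all tested genes. Mmp8 was at 1.02 (SE 0.444, adjusted p = 0.292 by edgeR). Of 9 dendritic cell markers 5 were on the panel, with sums of 121 to 198 CPM in control and 145 to 415 CPM in abemaciclib tumours, and 3 of 4 tested had an unadjusted p under 0.05. DESeq2 and limma-voom both called Itgax, which macrophages also express, and Ly75, an endocytic receptor, and edgeR called Ly75 without abemaciclib tumours 3 and 10 (adjusted p = 0.0357). T cell sums were 18.1 to 75.8 and 22.7 to 106 CPM, those of 6 B cell markers 2.11 to 16.5 and 8.05 to 24.8 CPM, and those of 4 natural killer markers 3.79 to 23.4 and 3.37 to 18.4 CPM. Sums of 7 endothelial markers were 359 to 801 and 297 to 674 CPM, and those of 8 fibroblast markers 3521 to 8366 and 2395 to 19904 CPM. Mammary epithelial markers were present in every tumour, with sums of at least 4518 CPM. Of the tested markers, 4 of 5 T cell, 1 of 1 B cell, 0 of 2 natural killer and 6 of 7 endothelial ones were positive. For fibroblasts it was 7 of 8 and for mammary epithelium 3 of 8, against 51.1% of all tested genes. In these lists only the B cell marker had an unadjusted p under 0.05 by edgeR, against 13.4% of all tested genes. Gzma was the 1 marker at 0 counts in all tumours. The part of these markers in the chemokine levels was not tested.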

How the data were processed

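Counts of amplicon reads were deposited by the authors as 1 table of 3826 genes and 23 tumours, whole numbers with no normalization. Per the labels' protocols, total RNA was amplified with an Ion AmpliSeq custom panel, and per the submitters' processing notes the build was mm10. Aligner, counting program and amplicon positions were not given in the sources used here. Counts hold no molecular identifiers, so they include PCR copies, and limits drawn from them cover counting error only.

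Genes were kept by filterByExpr (edgeR 4.0.16, R 4.3.3), which left 2925 and set aside 901. With TMM scaling, glmQLFit and glmQLFTest were fitted on all kept genes, two-sided, with Benjamini-Hochberg adjustment over them at 0.05. CPM use TMM-scaled totals, and log2 CPM a prior count of 2. The biological coefficient of variation was 32.6%. Correlations were computed within each group with 100000 permutations and adjusted over 16 relations. Counts of all 253 tumour pairs differed beyond sampling noise (chi-square over its degrees of freedom at least 19.0). The labels do not say which animal each tumour came from, so p-values measure the spread between tumours. On simulated counts for 2925 genes the fit recovered 40 of 67 genes changed 1.5-fold, 56 of 67 changed 2-fold and 66 of 66 changed 4-fold in abemaciclib against control, with 5 of 2725 unchanged genes called. These counts were drawn at each gene's fitted spread without outlying tumours, so the recovery describes all genes and not the members. The members' log2 CPM had a median SD of 0.60 in control and 0.73 in abemaciclib tumours, against 0.34 and 0.38 for all tested genes.

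Members and lists were chosen with earlier results of these data known. Members named with full values were the 6 with the smallest p in each direction, the 6 with the highest mean CPM, any called by DESeq2 1.42.0 or limma-voom (limma 3.58.1), and Cxcl2, Cxcl1, Cxcl10, Cxcl12, Cxcr4 and Ccl5. From each pathway list the 2 genes with the smallest p were named, except that some items are not reported here. Positions are from GENCODE M21 (GRCm38, the assembly mm10 names) and matched all 49 members. Alternatives were other scalings (RLE, upper quartile, library totals), no filter, a mean count of at least 50, DESeq2, limma-voom with quality weights, the tumour number as a block, leaving out each tumour, and leaving out abemaciclib tumours 3 and 10. The labels do not say what a shared tumour number stands for, and a check of it is given in the closing section.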

Additional observations from a re-analysis of the deposited data

How the results depend on the processing

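EdgeR called 0 members in all of its settings, leave-one-out fits included (0 to 0), and DESeq2 called 1, Cxcl2. Members with an unadjusted p under 0.05 numbered 6 of 26, against 13.4% of all tested genes, and 11 of 48 with no filter, against 13.4%. They numbered 4 to 7 on leaving out single tumours and 2 with the replicate block, for which no share over all genes is given. Over all genes, 0 calls became 1 with library totals, 60 by DESeq2, 127 by limma-voom and 93 without abemaciclib tumours 3 and 10. Leaving out single tumours gave 0 to 47, with 47 without abemaciclib tumour 10, 30 without 2, 10 without 3, 1 each without 5 or 9, 9 without control tumour 6 and 2 each without control tumours 1 or 5. Calls in the pathway lists, with 9, 10, 14 and 10 genes tested, were 4 by DESeq2, 5 by limma-voom and 2 without tumours 3 and 10. Over all tested genes these settings called 2.05%, 4.34% and 3.18%. On leaving out single tumours the lists had 0 to 3 calls (3 without abemaciclib tumour 2, 2 without 10 and 1 without 5). The cause of these shifts was not tested.

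The members' median stayed between 0.19 and 0.32 on leaving out single tumours and was 0.12 with library totals, which moved all genes by -0.13. Directions turned for Ccl12 and Ccl17 by limma-voom (0.088 and 0.039), and for Ccl5 without abemaciclib tumours 3 and 10 (-0.024). Cxcl1 turned to 0.073 with the replicate block and 0.049 on the same 22 tumours without it. On leaving out single tumours Cxcl1 ranged from -0.15 to 0.24 and Ccl17 from -0.19 to 0.043. Cxcl2 ranged from 0.90 to 1.12 (adjusted p = 0.0519 to 0.138 by edgeR), and from 0.78 to 1.04 over the other settings that kept it (adjusted p = 0.0296 to 0.190). Among members named with full values, a mean count of at least 50 left out Cxcl2, Ccl3, Ccl5, Ccl12, Ccl17, Ccl28 and Cxcr2.

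The pairing of tumour numbers was checked over 11 pairs: deviations of same-numbered tumours correlated at -0.43 to 0.45, 5 pairs were above 0.1, and 2 control tumours correlated best with their own number. The labels do not say what a shared number stands for, and this check does not settle it. With the block edgeR called 0 members and 0 genes, as it did without, and Ccl28 was at 0.58, against 0.99 on the same 22 tumours without the block. Cxcl2 rests on 4 to 30 counts per tumour, and 16 of the members set aside on at most 10, which widens their counting error.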
